A study of Homo sapiens with 32 samples.

Results

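The metallothionein genes MT1A, MT1E, MT1F, MT1G, MT1H, MT1M, MT1X, MT2A and MT3, with MTF1, were read by gene symbol from the deposited count tables. These 10 genes were found among 25559 symbols, and they were chosen as a family rather than by their values. The tables came from 32 RNA sequencing libraries of 4 established human T-cell lines: PF382 (T-cell acute lymphoblastic leukemia), HH and H9 (cutaneous T-cell lymphoma) and TLOm1 (adult T-cell leukemia). Each line was kept for 96 hours untreated, with romidepsin, with azacitidine at 3 doses, or with romidepsin plus azacitidine at those doses, which gave 8 libraries per line and 1 library per condition. Romidepsin, an inhibitor of histone deacetylases, was given at the start, at 1.25 nM to PF382 and 1 nM to TLOm1 and H9. By the titles HH received 1 nM when romidepsin was the only drug and 1.25 nM when azacitidine was added. Azacitidine, a cytidine analogue that traps DNA methyltransferases, was renewed every 24 h at 125, 250 or 500 nM in PF382 and TLOm1 and at 50, 125 or 250 nM in HH and H9. Doses in the titles of the combinations carry no unit and were read as nM. In cultures of this kind, fewer cells with a transcript and less transcript per cell cannot be told apart.

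Metallothioneins are small, cysteine-rich proteins that bind zinc and copper and buffer cells against cadmium and oxidants. The MT1 genes, MT2A and MT3 lie side by side on chromosome 16. MTF1, on chromosome 1, encodes the zinc-sensing transcription factor that switches most of them on by binding metal response elements in their promoters. MT2A and the MT1 genes are made in many tissues, and MT3 is best known from the brain. Silencing of MT1 genes with DNA methylation of their promoters has been described in several cancers.

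Along chromosome 16 the order of the genes was MT3, MT2A, MT1E, MT1M, MT1A, MT1F, MT1G, MT1H and MT1X in the GENCODE annotation, with MT1G on the minus strand and the others on the plus strand. A RefSeq promoter was found for 4 of the 10 genes (MT1H, MT1X, MT2A and MTF1, build GRCh38.p14, while the count tables were made on GRCh37.p2). The 250 bases before the start of 3 of them are shown, because they carry the letters that the zinc sensor reads. Capitals mark the core of the metal response element, spelled TGCACNC or TGCGCNC and searched on both strands, so that a core on the other strand appears as its reverse complement. The promoter of MT2A (chr16:56608334-56608583, plus strand) reads 5′ to 3′ as follows.
MT2A: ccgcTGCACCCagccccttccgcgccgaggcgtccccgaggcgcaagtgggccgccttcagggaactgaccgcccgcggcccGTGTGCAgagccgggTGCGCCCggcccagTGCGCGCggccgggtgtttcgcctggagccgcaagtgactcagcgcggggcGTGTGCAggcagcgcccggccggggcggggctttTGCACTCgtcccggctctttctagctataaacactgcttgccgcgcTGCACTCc
The window of MT1X, the last gene of the cluster, is chr16:56682220-56682469, plus strand.
MT1X: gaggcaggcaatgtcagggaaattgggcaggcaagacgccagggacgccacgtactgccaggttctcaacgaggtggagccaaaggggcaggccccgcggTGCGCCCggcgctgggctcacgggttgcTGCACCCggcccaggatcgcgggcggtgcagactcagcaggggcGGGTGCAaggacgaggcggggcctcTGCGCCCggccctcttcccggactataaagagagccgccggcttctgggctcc
MT1H, a neighbour that was hardly read in these cells, has its window at chr16:56669564-56669813, plus strand.
MT1H: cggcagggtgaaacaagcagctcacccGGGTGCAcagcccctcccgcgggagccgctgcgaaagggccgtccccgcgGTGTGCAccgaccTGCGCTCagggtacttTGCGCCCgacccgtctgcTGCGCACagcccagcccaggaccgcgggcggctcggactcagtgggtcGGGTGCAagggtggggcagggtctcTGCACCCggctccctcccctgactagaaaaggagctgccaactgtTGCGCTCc

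MT1H held 8 cores, MT2A 7 and MT1X 4, and no core overlapped another. Of 35114 promoter windows of the same length, 24.8% held at least 1 core, 0.37% held 4 or more, 0.0313% held 7 or more and 0.0171% held 8 or more. The MTF1 window held 0 cores, which says only that these letters are not in its 250 bases. CG pairs, the site of DNA methylation in mammals, numbered 32 in MT2A, 22 in MT1X, 22 in MT1H and 20 in MTF1. The median over all windows was 11. As many or more were held by 9.52% of all windows for MT2A, 28% for MT1X and MT1H, and 32.4% for MTF1. These are descriptions of sequence. No binding or methylation was measured here, and MT1H had as many CG pairs as MT1X and more cores than either of the other windows.

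Library totals ran from 16175077 to 32496676 counts. The T-cell markers fixed for the lines stood at a mean of 1 CPM or more for 11 of 11 genes in PF382, 10 of 11 in HH (LCK under 1 CPM), 10 of 11 in H9 (CD2 under 1 CPM) and 7 of 11 in TLOm1 (CD3D, CD3G, CD7 and LCK under 1 CPM). CPM here is the count of a gene relative to the total of its library, and it is used to follow 1 gene across libraries. Mean CPM ranked genes only to choose which list genes to name, and to choose MT2A and MT1X for the search of similar genes.

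The cluster was read unevenly. MT2A and MT1X had counts in 32 of 32 libraries, as did MTF1. MT1F had counts in 27 libraries, MT1E in 18, MT3 in 15 and MT1G in 13. MT1M had 0 counts in 32 of 32 libraries, which allows up to 3 counts, or 0.0923 to 0.185 CPM depending on the library. MT1A had 4 counts in all, 1 in each of 4 libraries, and MT1H had 17 counts in 11 libraries, with 3 at most. Those 3 genes were too low to test, and 7 of the 10 genes were tested among 17801 symbols.

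Which genes were read depended on the line. MT1E, one of the MT1 copies, was high in HH and close to absent elsewhere. In HH its 8 libraries ran from 137 to 377 counts (10.2 ± 2.77 CPM, SD, n = 8 treatments). In PF382 they ran from 0 to 29 counts, in TLOm1 6 of 8 were at 0 with 4 counts in all, and in H9 7 of 8 were at 0 with 1 count in all. No library of another line came near the lowest HH library. Averaged over treatments by the model, MT1E was higher in HH than in PF382 by 4.74 ± 0.35 (log2, SE, adjusted p = 1.37e-11).

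MT1F, another MT1 copy, had a different order. It was read in every library of PF382 (40 to 177 counts) and of H9 (38 to 80 counts). HH libraries had 0 to 35 counts and TLOm1 libraries 0 to 5. PF382 and H9 did not differ beyond their spread (H9 lower by a log2 difference of -0.22 ± 0.35, adjusted p = 0.581), while HH was lower than PF382 by a log2 difference of -2.80 ± 0.37 (adjusted p = 2.82e-07).

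MT1G was read mainly in PF382, and MT3 in PF382 and H9. MT1G, an MT1 copy on the opposite strand, gave 317 of its 329 counts in PF382, 10 in HH, 2 in TLOm1 and 0 in H9. MT3, the brain-type metallothionein, gave 100 of its 140 counts in PF382 and 40 in H9, where 8 of 8 libraries had at least 1 count. TLOm1 and HH had 0 counts of MT3 in 8 of 8 libraries each. MT1H gave 12 of its 17 counts in PF382, where 7 of 8 libraries had a count.

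MT2A, the most widely made metallothionein, was highest in H9 and HH and lowest in TLOm1. Its level was 66.6 ± 23.9 CPM in H9, 45.6 ± 7.44 in HH, 24.03 ± 10.97 in PF382 and 4.52 ± 3.35 in TLOm1 (SD over 8 treatments, so the spread holds drug effects). H9 and HH, neighbours in that order, did not differ beyond their spread (H9 higher by 0.39 ± 0.23 on the log2 scale, adjusted p = 0.133). HH stood above PF382 by 1.31 ± 0.27 (adjusted p = 0.000109), and PF382 stood above TLOm1, whose log2 difference from PF382 was -2.32 ± 0.27 (adjusted p = 3.58e-08).

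MT1X, another MT1 copy, was more even: 9.05 ± 2.19 CPM in PF382, 8.70 ± 2.19 in H9, 6.79 ± 1.49 in HH and 3.47 ± 1.40 in TLOm1. TLOm1 was lower than PF382 by a log2 difference of -1.23 ± 0.12 (adjusted p = 9.38e-10), and H9 differed little from PF382 (0.15 ± 0.12, adjusted p = 0.246). MTF1, the zinc sensor, ran the other way in TLOm1. Its level there was 49.4 ± 4.37 CPM, against 37.3 ± 3.80 in HH, 32.8 ± 4.12 in PF382 and 28.2 ± 2.98 in H9, and TLOm1 stood above PF382 by 0.79 ± 0.07 (adjusted p = 8.05e-10). The line with the highest MTF1 level thus had the lowest levels of MT2A and MT1X. Between the lines 7 of 7 tested genes differed by edgeR's quasi-likelihood test, as did 98.1% of all tested symbols, so a difference between lines is the rule in these data. Adjusted p-values come from this test with Benjamini-Hochberg adjustment over all 17801 symbols. For differences between lines, and for drug effects within a line given below, libraries of a line at different treatments served as replicates. Those p-values do not measure the spread between separate cultures of a line.

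**Figure D1:**
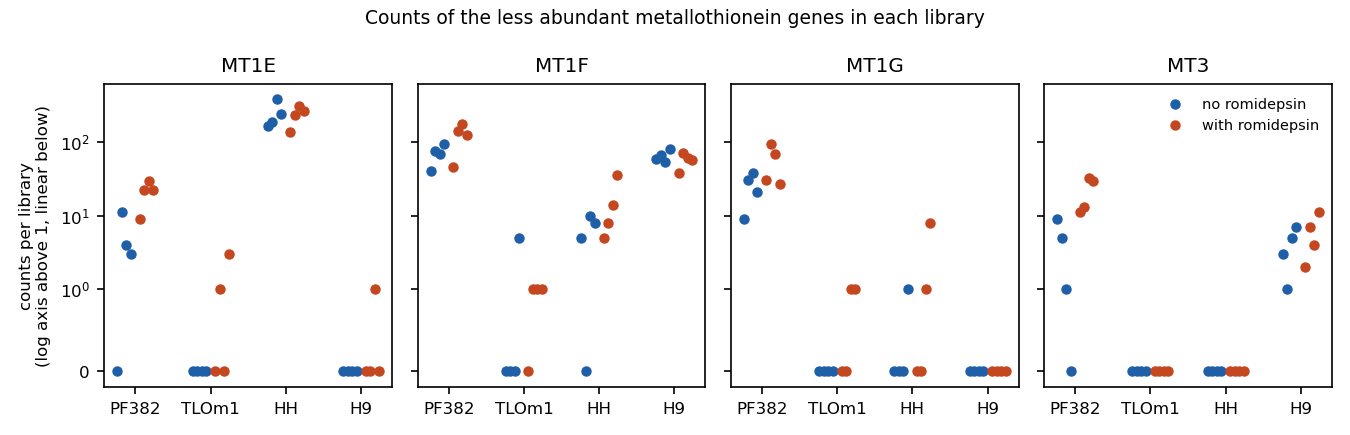
Counts of MT1E, MT1F, MT1G and MT3 in each of the 32 libraries, by line (log axis above 1 count, linear below), with romidepsin in red and without it in blue. MT1E is high in HH alone, MT1G in PF382 alone, and MT3 is at 0 in all TLOm1 and HH libraries.

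Some of these genes resemble each other enough for reads to be shared. Of the 50-base windows of each transcript, 20.4% in MT1H, 20.2% in MT1G, 16% in MT1X, 10.6% in MT1E, 4.88% in MT2A and 3.59% in MT1F also occurred in another family transcript (GENCODE v29). The share was 0% in MT3 and MTF1. How shared reads were counted is not given in the sources used here, so counts of MT1G, MT1X and MT1E are uncertain. These shares do not bound the error, because MT1G shares windows with MT2A and MT1X, which had far more counts. MT1X also overlaps the same-strand gene AC026461.1, and MTF1 the opposite-strand gene AL929472.4, and the strand setting of the counting is not given. Among other family symbols, MT4 and MT1B had 0 counts, and the pseudogenes MT1L and MT1DP had 47 and 132 counts in all. MT1DP and the family-named gene MTL5 were tested, and neither was called in the combination at 250 nM (adjusted p = 0.601 and 0.920).

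Romidepsin with azacitidine raised several of the tested genes, and the calls depended on the lines and the method used. At 250 nM azacitidine, the highest dose given to 4 of 4 lines, 5 of 7 tested genes were higher in the combination than in untreated cells and 0 were lower (MT2A, MT1X, MT1E, MT1F and MT1G). Over all tested symbols, 23% were called (adjusted p under 0.05) in that comparison and 14.2% were called higher. The median log2 change was 1.70 over the 7 genes and 0.04 over all tested symbols. MT1E, MT1G and MT3 passed the filter on low counts although each had few or no counts in at least 2 lines. MT1G reached the filter's minimum count of 10 only in drug-treated libraries of PF382, and MT3 only in libraries with romidepsin. Both entered the test through libraries where they were high, so their part in the count and in the median is a description only. MTF1, the zinc sensor, was not called (log2 change -0.01 ± 0.10, adjusted p = 0.941).

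MT2A gave 7.29 CPM in untreated PF382 and 39.2 in the combination, 1.58 and 7.80 in TLOm1, 32.7 and 46.0 in HH, and 31.2 and 100.01 in H9. The combination was higher in 4 of 4 lines, and the untreated values of HH and H9 lay above the combination value of TLOm1, so the rise shows within lines. Its log2 change was 1.62 ± 0.36 (SE, n = 4 lines, adjusted p = 0.00279). From 1 library to the other the rise was 5.37-fold in PF382 (95% counting interval 4.55 to 6.37), 4.92-fold in TLOm1 (3.45 to 7.17), 3.204-fold in H9 (2.96 to 3.48) and 1.41-fold in HH (1.28 to 1.55).

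MT1X gave 5.76 CPM in untreated PF382 and 9.81 in the combination, 2.32 and 3.95 in TLOm1, 4.98 and 9.61 in HH, and 6.33 and 12.4 in H9. Its rise was smaller but more even, between 1.70-fold (1.37 to 2.13, PF382) and 1.95-fold (1.60 to 2.38, H9) in the 4 lines. The log2 change was 0.83 ± 0.16 (adjusted p = 0.000895), and the range without 1 line was 0.80 to 0.86.

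MT1F gave 40 counts in untreated PF382 and 177 in the combination, 5 and 35 in HH, 59 and 57 in H9, and 0 and 1 in TLOm1. The change therefore came from PF382 (4.32-fold, 3.05 to 6.26) and HH (7.64-fold, 2.98 to 24.99), and in H9 the interval of the ratio held no change (1.14-fold, 0.778 to 1.67). Its log2 change of 1.70 ± 0.52 (adjusted p = 0.0219) lost the call without PF382 (1.52, adjusted p = 0.130) or without HH (1.15, adjusted p = 0.159), and it was 2.39 without H9.

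MT1E gave 163 counts in untreated HH and 266 in the combination, and 0 and 29 in PF382. TLOm1 and H9 had 0 counts in both. The rise was 1.78-fold (1.46 to 2.18) in HH. In PF382 it was 9.45-fold against a floor of 3 counts in the untreated library, and the counting interval began at 7.21-fold. The fitted change of 1.76 ± 0.56 (adjusted p = 0.0257) mixes these 2 lines: it was 0.76 without PF382 (adjusted p = 0.204), 1.79 without H9 (adjusted p = 0.0711) and 5.95 without HH, where the untreated libraries were all at 0 and the size rests on the prior count of the fit.

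MT1G gave 9 counts in untreated PF382 and 69 in the combination (7.49-fold, 3.73 to 17.1), 0 and 8 in HH, 0 and 1 in TLOm1, and 0 in both H9 libraries. The fitted change was 3.63 ± 0.87 (adjusted p = 0.00762) and 2.85 without HH. Without PF382 the gene was too low to test. MT3 gave 9 and 32 counts in PF382 (3.48-fold, 1.62 to 8.28) and 3 and 11 in H9, and its change of 1.76 ± 0.84 did not pass the test (adjusted p = 0.169).

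**Figure D2:**
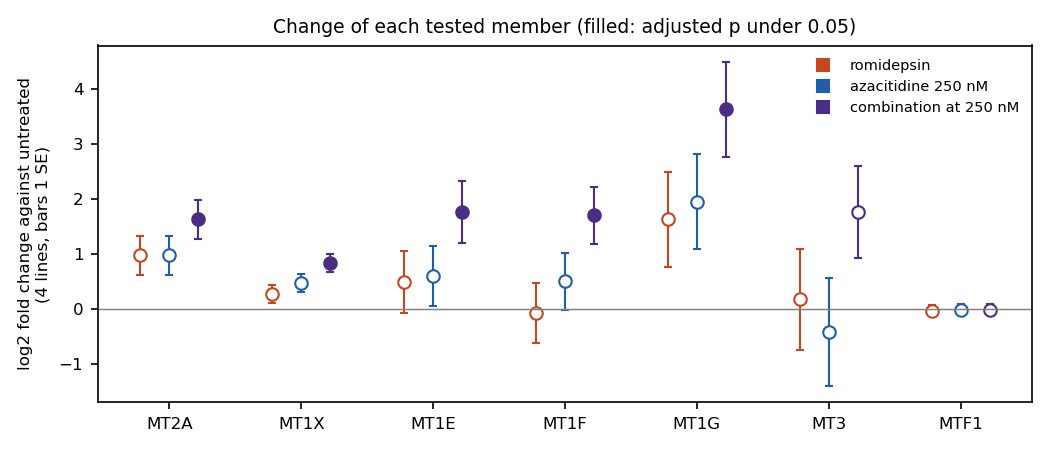
Log2 change of the 7 tested genes against untreated cells with romidepsin, azacitidine at 250 nM or both (4 lines, bars 1 SE, filled symbols adjusted p under 0.05). The filled symbols are those of the combination for MT2A, MT1X, MT1E, MT1F and MT1G, and MTF1 lies at 0 throughout.

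The count of 5 genes was 3 with DESeq2 and 0 when only the 8 libraries compared were fitted, where MT2A and MT1X kept changes of 1.65 and 0.82 (adjusted p = 0.109 and 0.123). It was 2 without PF382. The summed CPM of 4 epithelial markers moved with the treatment between untreated cells and the combination. It went from 5.06 to 103 in PF382, 48.7 to 194 in TLOm1, 103 to 189 in H9 and 0.823 to 2.78 in HH. By its mean in a line, EPCAM was under 1 CPM in PF382, TLOm1 and HH, and CDH1 in PF382 and HH. In HH the means of KRT8 and KRT18 were under 1 CPM too. The summed CPM of 4 fibroblast markers, untreated and then in the combination at 250 nM, was 7.64 and 34.3 in PF382, 0.284 and 6.99 in TLOm1, 0.165 and 4.71 in HH, and 3.87 and 15.7 in H9. Over all libraries of a line that sum ranged from 5.14 to 59.3 in PF382, and the mean of COL1A2 and of COL3A1 was under 1 CPM in each of the 4 lines. The sum of 3 B-cell markers was 10.6 and 29.1 in PF382 and 1.19 and 4.89 in HH. It was lower in the combination in TLOm1 (0.528 and 0.475) and in H9 (51.1 and 43.1). The sum of 11 T-cell markers was 2538 and 2566 in PF382, 1969 and 1827 in TLOm1, 1874 and 1639 in HH, and 2440 and 1831 in H9. For 3 myeloid markers it was 0.393 and 1.66 in PF382, 1.95 and 3.04 in TLOm1, 4.44 and 6.02 in HH, and 0.0383 and 0.226 in H9. The part of these markers in the result was not tested.

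At 125 nM the combination raised 4 of 7 genes, where 4.40% of all symbols were called higher and 7% were called. MT2A reached 37.0 CPM in PF382, 7.47 in TLOm1, 52.2 in HH and 80.9 in H9, all above the untreated library of the line, and its log2 change was 1.56 ± 0.36 (adjusted p = 0.0104). MT1X reached 12.3, 3.85, 8.24 and 10.7 CPM in the same lines (0.82 ± 0.16, adjusted p = 0.00363). MT1G had 93 counts in PF382 at this dose, the most of any library, against 1 in HH and 0 in TLOm1 and H9 (fitted change 2.97 ± 0.84, adjusted p = 0.0424). Its entry to the test rested on drug-treated PF382 libraries, as stated above. MT1E had 22 counts in PF382 and 310 in HH (1.81 ± 0.55, adjusted p = 0.0478), and MT1F had 140 and 14, with a change that was not called (adjusted p = 0.234).

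Several of these calls at 125 nM were lost when 1 line was left out, which also leaves fewer libraries. MT2A lost its call without PF382 (1.31, adjusted p = 0.108) and without H9 (1.64, adjusted p = 0.0570), and MT1X without HH (0.83, adjusted p = 0.0528). MT1G lost it without TLOm1, HH or H9 (adjusted p = 0.101, 0.0662 and 0.05999), with changes of 3.07, 3.03 and 3.02, and was too low to test without PF382. MT1E lost it without PF382, TLOm1 or H9 (adjusted p = 0.0990, 0.0799 and 0.132), and its fitted change was 5.94 without HH. The count was 2 with DESeq2 and 0 when only the libraries compared were fitted.

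By edgeR neither drug alone gave a called change over the 4 lines, in comparisons that use the same untreated libraries as the combination. With romidepsin alone 0 of 7 genes were called by edgeR (0.0169% of all symbols), 1 had an unadjusted p under 0.05, and DESeq2 and limma-voom also called 0. MT2A was nonetheless higher in 4 of 4 lines: 19.9 CPM in PF382, 6.06 in TLOm1, 44.1 in HH and 43.1 in H9, for a change of 0.98 ± 0.36 (adjusted p = 0.722). MT1X changed by 0.27 ± 0.16 (adjusted p = 0.938).

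With azacitidine alone at 250 nM, 0 of 7 were called by edgeR (5.99% of all symbols), 3 had an unadjusted p under 0.05, DESeq2 called 1 (MT1X) and limma-voom 2 (MT1X and MT2A). MT2A went from 31.2 to 93.0 CPM in H9 and from 7.29 to 21.4 in PF382, was 44.4 in HH, and was 1.40 in TLOm1, below the 1.58 of untreated cells. Its change of 0.97 ± 0.35 had an adjusted p of 0.103, and without TLOm1 it was 1.12 with a call (adjusted p = 0.0372). Without H9 it was 0.68 (adjusted p = 0.472) and without PF382 0.82 (adjusted p = 0.301). MT1X changed by 0.47 ± 0.16 (adjusted p = 0.0840), with 8.32 CPM in PF382, 2.54 in TLOm1, 6.81 in HH and 10.4 in H9. At 125 nM, 0 of 7 were called by edgeR (0.461% of all symbols), 2 had an unadjusted p under 0.05, and DESeq2 and limma-voom called 0. MT2A changed by 0.84 ± 0.35 there (adjusted p = 0.414) and MT1X by 0.47 ± 0.16 (adjusted p = 0.263).

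The combination at 250 nM was also set against each single drug. MT1F was called higher over romidepsin (1.78 ± 0.53, adjusted p = 0.0271), with 177 against 46 counts in PF382, 35 against 5 in HH, 57 against 38 in H9 and 1 against 0 in TLOm1. MT1X was called as well (0.57 ± 0.16, adjusted p = 0.0211), and those were 2 of 7 genes where 14.1% of symbols were called and 8.92% called higher. MT1F lost the call without PF382 (1.80, adjusted p = 0.110) and without HH (1.30, adjusted p = 0.154), and MT1X without HH (0.53, adjusted p = 0.146) and without H9 (0.47, adjusted p = 0.167). Without HH the count was 0, as it was with only the libraries compared. MT2A was higher by 0.65 ± 0.35 (adjusted p = 0.219).

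Against azacitidine at 250 nM, 0 of 7 genes were called by edgeR, DESeq2 or limma-voom (5.67% of all symbols by edgeR), although 5 had an unadjusted p under 0.05. MT2A was higher by 0.65 ± 0.34 (adjusted p = 0.273) and MT1X by 0.36 ± 0.16 (adjusted p = 0.178). How far the combination lay from adding up both single-drug changes on the log2 scale was also tested, and it was called for 0 of 7 genes by the same 3 tools, 0 at an unadjusted p under 0.05, and for 0% of all symbols. For MT2A it was -0.32 ± 0.49 and for MT1X 0.10 ± 0.23 (adjusted p = 1 for both).

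**Figure D3:**
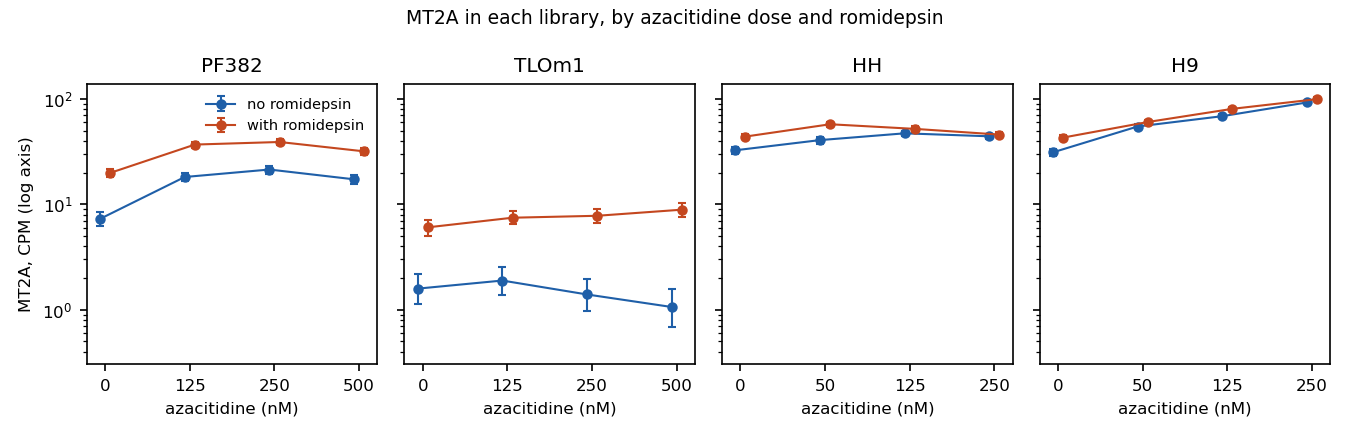
MT2A in CPM (log axis) against azacitidine dose in nM, for each line, with romidepsin in red and without it in blue (1 library per point, bars 95% Poisson counting intervals). The romidepsin points lie well above the others in TLOm1 and PF382, and in H9 both sets climb from about 31.2 and 43.1 to 93.0 and 100.01 CPM.

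The size of the romidepsin effect on MT2A differed between lines. In TLOm1 the 4 libraries without romidepsin gave 1.06 to 1.89 CPM and the 4 with it 6.06 to 8.91, with no overlap. In PF382 romidepsin raised each pair matched on azacitidine, from 7.29 to 19.9, 18.2 to 37.0, 21.4 to 39.2 and 17.3 to 31.9 CPM. In HH the pairs were 32.7 and 44.1, 40.8 and 57.7, 47.3 and 52.2, and 44.4 and 46.0, and in H9 they were 31.2 and 43.1, 54.9 and 60.6, 68.8 and 80.9, and 93.0 and 100.01. The romidepsin library was the higher one in each of these pairs, and the gap was small in HH and H9.

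As a log2 effect within the line, estimated over the 4 pairs of libraries at equal azacitidine, romidepsin raised MT2A by 2.29 ± 0.17 in TLOm1 (adjusted p = 9.25e-09) and by 1.00 ± 0.11 in PF382 (adjusted p = 9.18e-07). In HH the effect was 0.28 ± 0.10 (adjusted p = 0.0507), where the romidepsin dose differed between single drug and combination, and in H9 it was 0.21 ± 0.10 (adjusted p = 0.277). The HH value was called with DESeq2 size factors (0.29, adjusted p = 0.0368), with DESeq2 (0.29, adjusted p = 0.0483) and without the pair at 250 nM (0.38, adjusted p = 0.0212). The 4 effects were unequal (adjusted p = 6.39e-07), as were those of 33% of all symbols.

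Azacitidine raised MT2A in PF382 by 1.05 ± 0.20 (adjusted p = 0.00212) and in H9 by 1.03 ± 0.19 (adjusted p = 0.00227), over 6 libraries with any dose against 2 without. The effects were 0.32 ± 0.18 in HH (adjusted p = 0.350) and 0.22 ± 0.24 in TLOm1 (adjusted p = 0.551). That the 4 effects differ was not shown (adjusted p = 0.0619, against 10.7% of all symbols called). By edgeR PF382 was the only line in which both effects on MT2A were called, and in TLOm1 only that of romidepsin was. Both estimates lay above 0 in each of the 4 lines, so a missing call does not show that an effect was absent.

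**Figure D4:**
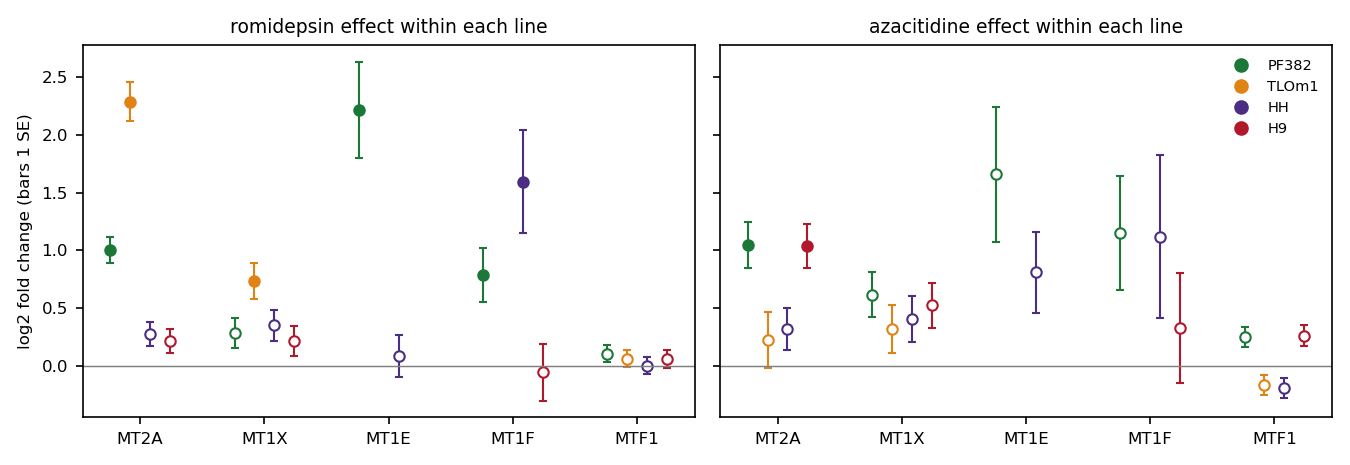
Log2 effect of romidepsin (left) and of azacitidine at any dose (right) within each line, for MT2A, MT1X, MT1E, MT1F and MTF1 (bars 1 SE, filled symbols adjusted p under 0.05). Romidepsin effects on MT2A run from 0.21 in H9 to 2.29 in TLOm1, and azacitidine effects on MTF1 lie above 0 in PF382 and H9 and below 0 in TLOm1 and HH.

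In PF382 romidepsin gave 5 of 7 genes called higher by edgeR (30.7% of symbols called, 19.1% higher), where DESeq2 called 2. MT3 is among these 5, although it passed the filter on low counts only through libraries with romidepsin. MT1E went from 0, 11, 4 and 3 counts without romidepsin to 9, 22, 29 and 22 with it, at 0, 125, 250 and 500 nM azacitidine (2.22 ± 0.41, adjusted p = 0.000887). MT1F went from 40, 76, 69 and 92 counts to 46, 140, 177 and 123 (0.78 ± 0.23, adjusted p = 0.0142). MT1G went from 9, 30, 38 and 21 to 30, 93, 69 and 27 (1.16 ± 0.30, adjusted p = 0.0113).

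MT3 had 9, 5, 1 and 0 counts along the azacitidine doses without romidepsin and 11, 13, 32 and 29 along them with it. Its romidepsin effect was 2.44 ± 0.68 (adjusted p = 0.0144). Only libraries with romidepsin, here and in H9, reached the filter's minimum count of 10 for MT3. The gene thus entered the test through the libraries where it was high, and its call is a description only. At 250 nM the pair was 32 against 1 count, a ratio of 32.1 with an interval of 5.37 to 1309. MT1X in PF382 moved by 0.28 ± 0.13 (adjusted p = 0.114). Without the pair at 125 nM the calls of MT1F (0.72, adjusted p = 0.0768) and MT1G (0.93, adjusted p = 0.0945) were lost, and MT1E was at 3.05. Without the pair at 250 nM those of MT1F (0.58, adjusted p = 0.143) and MT3 (1.90, adjusted p = 0.0912) were lost, and without the pair at 500 nM that of MT3 (1.84, adjusted p = 0.0714). MT3 was at 3.51 without the pair at 0 nM, and DESeq2 called 2 of the 5 genes, MT2A and MT1E.

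TLOm1 had 2 of 7 genes called higher with romidepsin (32.6% of symbols called, 17.1% higher), MT2A and MT1X. MT1X there gave 2.32, 3.12, 2.54 and 2.08 CPM without romidepsin and 3.42, 3.85, 3.95 and 6.48 with it, with no overlap between the sets (0.74 ± 0.16, adjusted p = 0.00131). In HH 1 of 7 was called (27.7% of symbols, 14% higher): MT1F, with 5, 0, 10 and 8 counts without and 5, 8, 14 and 35 with romidepsin at 0, 50, 125 and 250 nM (1.60 ± 0.44, adjusted p = 0.0108). That call rested on the pair at 250 nM, without which it was 1.16 (adjusted p = 0.177). MT1E, high in HH, was not called with romidepsin there (0.08 ± 0.18, adjusted p = 0.812). In H9 0 of 7 were called by edgeR and by DESeq2 (4.47% of symbols by edgeR), and 1 had an unadjusted p under 0.05. Unequal romidepsin effects were also called for MT1E (adjusted p = 0.00817) and MT1F (adjusted p = 0.0462), and not for MT1G (adjusted p = 0.466) or MT3 (adjusted p = 0.618).

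With azacitidine, edgeR called 1 of 7 genes in PF382 (8.33% of symbols) and 1 in H9 (5.86%), MT2A in both lines. DESeq2 called 3 in PF382 and 2 in H9. In HH edgeR called 0 (5.87% of symbols), 2 had an unadjusted p under 0.05, and DESeq2 called MT1E (0.81, adjusted p = 0.0342). In TLOm1 both tools called 0 (18.7% of symbols by edgeR), and 0 had an unadjusted p under 0.05. MT1X moved by 0.62 ± 0.20 in PF382 (adjusted p = 0.0544), 0.52 ± 0.20 in H9 (adjusted p = 0.117), 0.40 ± 0.20 in HH (adjusted p = 0.259) and 0.32 ± 0.21 in TLOm1 (adjusted p = 0.295). Without the 50 nM libraries H9 gave 3 calls, MT2A (1.20), MT1X (0.65, adjusted p = 0.0314) and MTF1 (0.31, adjusted p = 0.0327).

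The azacitidine effects on MTF1 itself differed between lines (adjusted p = 0.0151). They were 0.25 ± 0.09 in PF382 and 0.26 ± 0.09 in H9, and -0.17 ± 0.09 in TLOm1 and -0.20 ± 0.09 in HH, and none passed the test alone (adjusted p = 0.0844, 0.0870, 0.159 and 0.195). In H9 the libraries without romidepsin gave 24.3, 26.2, 28.97 and 30.3 CPM from 0 to 250 nM, and in HH they gave 44.9, 33.9, 36.1 and 34.5. PF382 and H9, where the MTF1 effect lay above 0, were also the lines where the azacitidine effect on MT2A was called. The MT2A effects in HH (0.32) and TLOm1 (0.22) lay above 0 as well, and unequal MT2A effects were not shown. A link between these genes was not tested.

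No dose slope was called over the 4 lines. The change per doubling of azacitidine was called for 0 of 7 genes by edgeR, DESeq2 and limma-voom, 1 had an unadjusted p under 0.05, and 23.7% of all symbols were called by edgeR. It was 0.07 ± 0.11 for MT2A (adjusted p = 0.695) and 0.09 ± 0.05 for MT1X (adjusted p = 0.237). For MT2A 1 line set the sign: without H9 the slope was -0.02. In H9 itself MT2A was higher at each higher dose, going from 31.2 to 54.9, 68.8 and 93.0 CPM without romidepsin and from 43.1 to 60.6, 80.9 and 100.01 with it. TLOm1 with romidepsin was also higher at each higher dose (6.06, 7.47, 7.80 and 8.91 CPM). Without romidepsin it gave 1.58, 1.89, 1.40 and 1.06 CPM from 0 to 500 nM. PF382 had its highest MT2A at 250 nM and HH at 125 nM without romidepsin and 50 nM with it, so the 4 lines did not share a course. Slopes fitted apart gave 0 of 7 calls without romidepsin (7.76% of symbols) and 0 of 7 with it (23.2%), with 0 and 1 at an unadjusted p under 0.05, and the difference of the slopes gave 0 of 7 (0.0112%), with 2 at an unadjusted p under 0.05.

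**Figure D5:**
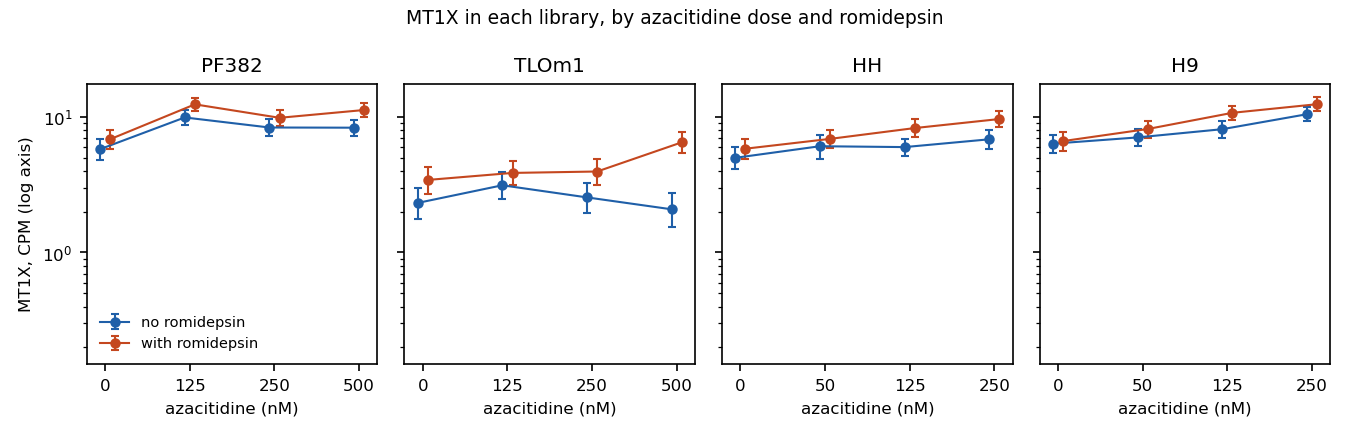
MT1X in CPM (log axis) against azacitidine dose in nM, for each line, with romidepsin in red and without it in blue (1 library per point, bars 95% Poisson counting intervals). The course is shallower than for MT2A: in H9 it runs from 6.33 to 10.4 CPM without romidepsin and from 6.61 to 12.4 with it.

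MT1X and MT2A moved together within lines. Over 32 libraries with each line's mean subtracted, Pearson's r of their log2 CPM was 0.82, and within single lines of 8 libraries it was 0.93 in H9, 0.88 in TLOm1, 0.84 in PF382 and 0.57 in HH. MTF1 and MT2A had an r of 0.90 in H9 and 0.72 in PF382, 0.35 in TLOm1 and -0.33 in HH. These are descriptions over libraries that share treatments, line and depth. By the same measure the genes most like MT1X were SMPDL3B (r = 0.89) and SLC39A14 (0.87), which encodes an importer of zinc, iron and manganese, then TSPAN13, MPZL2 and GLIPR2. Those most like MT2A were EPB41L3 and EAF2 (0.85 each), CAPN6, HPGD and SMPDL3B.

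Other genes of metal handling were read in the combination at 250 nM against untreated cells, where 23% of all symbols were called and 14.2% called higher. Importers, exporters and copper genes were called at about that share or below it. Of 12 tested zinc importers 2 were higher and 1 lower. SLC39A14 rose by 0.84 ± 0.10 (adjusted p = 9.8e-06), SLC39A3 rose by 0.39 and SLC39A10, another importer, fell by 0.58. Of 8 zinc exporters 1 was higher, SLC30A3 (3.15 ± 0.61), which loads zinc into vesicles, while SLC30A1, the exporter of the plasma membrane and a known MTF1 target, named here for that role after its values were seen, was not called (0.27 ± 0.17, adjusted p = 0.266).

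Of 9 copper-handling genes ATP7B, a copper-exporting pump, rose by 1.60 and COMMD1, a regulator of copper export, fell by 0.40. Of 15 genes of the metal and oxidative stress response 6 were higher and 0 lower, where 14.2% of all symbols were called higher. Among them were HMOX1, which degrades heme (3.65), NQO1, a quinone reductase (1.78), TXNRD1 (0.49), GCLC (0.49) and DNAJB1 (0.44). The medians were 0.01, 0.06, -0.03 and 0.44 in the order importers, exporters, copper and stress genes, against 0.04 over all symbols.

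Of 8 genes flanking the cluster on chromosome 16, 3 were higher and 2 lower in the same comparison (23% of all symbols called). GNAO1, a G-protein subunit on the MT3 side, rose by 1.81 ± 0.39, SLC12A3, a salt transporter on the MT1X side, by 5.26 ± 0.89, and HERPUD1, a gene of the endoplasmic reticulum stress response, by 0.40 ± 0.11. NUDT21 fell by 0.34 and BBS2 fell by 0.40. Calls in both directions thus lay beside the cluster.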

How the data were processed

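The authors deposited 1 table of raw counts for each library, with gene symbols in its rows, and these counts were used unchanged. STAR, DESeq2, limma and the build GRCh37.p2 are named in the submitters' processing notes, without versions or roles, while the counter, annotation and strand setting were not given in the sources used here. Per the labels, the RNA was described both as poly(A) RNA and as depleted of ribosomal RNA. A misspelt title of PF382 was read by its cell line label.

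All 32 libraries were fitted with edgeR 4.0.16 in R 4.3.3 (TMM scaling, robust quasi-likelihood F test, Benjamini-Hochberg adjustment, threshold 0.05). Symbols were kept by a minimum count of 10 and a minimum total of 15, which left 17801. The first model had 10 treatment groups plus cell line (19 residual degrees of freedom). Others gave the dose slope (24), the romidepsin effect by line (12, matched on azacitidine dose) and the azacitidine effect by line (20). There was 1 library per condition and line, so the 4 lines were the replicates when treatments were compared over lines. For differences between lines and for effects within a line, libraries at different treatments took that place. The spread behind each p-value was pooled over 32 libraries, with libraries of a line counted as independent, and nothing says whether libraries came from separate cultures. Pairing by line comes from the origin of the cells: 60 of 60 same-line pairs correlated, at 0.86 to 0.973, and no pair was identical. SE is the log2 change over the square root of F. Ratios of single libraries have exact 95% intervals, for counting error alone, as no molecular identifiers were used to tell molecules apart. A floor is 3 counts.

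In simulated counts for azacitidine at 250 nM over 17801 symbols, 82.5% of 200 genes changed by 2 on the log2 scale were recovered. They were drawn from genes with a mean of at least 10 counts and changed in each line. Smaller changes, such as those of MT2A and MT1X with azacitidine at 250 nM, were not simulated there. Alternatives were DESeq2 1.42.0, limma-voom (limma 3.58.1), other size factors, no filter, no line term, only the libraries compared, and each line or dose left out. Named genes were the 10 family genes, list members that were called or among the 4 with the highest mean CPM, and, for MT2A and MT1X, the 5 genes of highest r. The genes and lists were chosen with earlier results of these data known. Promoters are RefSeq's (GRCh38.p14), searched with a script. One gene of the stress response list is counted but not reported here.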

Additional observations from a re-analysis of the deposited data

Results flagged for a closer look

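Sets of 4 line changes (log2 of CPM with 0.25 added) were searched for 1 line far from the other 3, beyond Dixon's 95% critical value. Of 49 sets 6 stood out, and chance alone gives about 1 in 20. All 6 were PF382. With romidepsin alone MT1E changed by 1.42 in PF382 and by -0.12 to 0 in the others, and MT1G by 1.35 against 0. With azacitidine alone MT1G changed by 1.15 at 125 nM, against 0, and by 1.54 at 250 nM, against 0 to 0.22. In the combination at 125 nM MT1G changed by 2.70, against 0 to 0.25, and MT1X by 1.06, against 0.68 to 0.73. The MT1G values share the untreated PF382 library of 9 counts, and the other 3 untreated libraries had 0 counts. In the MT1E set TLOm1 and H9 had 0 counts both untreated and with romidepsin alone. The rate of 1 in 20 is for independent sets with reads in each line, so it does not apply to the MT1G and MT1E sets. The sets of MT1X share untreated libraries as well.

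Effects that differed between lines by the F test of equal effects were those of romidepsin on MT2A (adjusted p = 6.39e-07), MT1E (adjusted p = 0.00817) and MT1F (adjusted p = 0.0462), and that of azacitidine on MTF1 (adjusted p = 0.0151), by edgeR.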

How the results depend on the processing

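Lines pair the libraries by origin, and without that block (no line term) the counts of called genes fell to 0 for the combination at 125 nM, for the combination at 250 nM and for the combination against romidepsin, while the dose slopes reversed to -0.037 for MT1X and -0.42 for MT2A. With only the libraries compared, the same 3 counts were 0, from fewer residual degrees of freedom. DESeq2 called 1 gene for azacitidine at 250 nM, 2 and 3 for the combination at 125 and 250 nM, 2 for romidepsin in PF382, 3 for azacitidine in PF382, 2 for romidepsin in HH, 1 for azacitidine in HH and 2 for azacitidine in H9. Limma-voom called 2 for azacitidine at 250 nM, no filter on low counts left 2 for the combination at 125 nM, and DESeq2 size factors gave 2 for romidepsin in HH. The cause was not tested. With 1 line or dose left out, counts ran from 0 to 1 for azacitidine at 250 nM, 1 to 2 and 2 to 5 for the combination at 125 and 250 nM, 0 to 2 for the combination against romidepsin, 3 to 5 for romidepsin in PF382 and 1 to 3 for azacitidine in H9. Signs reversed for values near 0: MTF1 in the combination at 250 nM (0.015 with DESeq2 size factors, 0.013 with DESeq2, and -0.11 to 0.10 with a line left out), the MT2A slope (-0.020 without H9) and MT1F with romidepsin in H9 (-0.20 to 0.052 with a dose left out). A term of azacitidine for each line, added after the data were seen, left the slope count at 0. The tests of unequal effects, the pairwise line differences and the separate slopes were fitted in 1 way. Depth limits MT1E, MT1G and MT3 most, which rest on under 30 counts in many libraries, and MT1A, MT1H and MT1M could not be tested.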
